A study of Arabidopsis thaliana with 8 samples.

Results

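The 31 genes described here read at least log2 4.5 in unstressed Arabidopsis thaliana seedlings of the mock no-recovery group. They read at or near the floor of the array directly after 30 h at 37 °C. They were chosen by their values: a probe set mapped to 1 nuclear protein-coding gene had to read below log2 2.5 on both heat no-recovery arrays and at least 4.5 on both mock no-recovery arrays. AT1G66100 and genes with symbols of several enzyme and cell wall families were left out, which removed 1 gene within both thresholds. The 31 members, each from 1 probe set and 1 gene, are drawn from 22746 tested probe sets, and make up 0.491% of the 6318 nuclear protein-coding probe sets at or above 4.5 on both mock no-recovery arrays. Whole seedlings were grown in vitro for 3 weeks at 22 °C. The groups are heat without recovery (seedlings held at 37 °C for 30 h and taken at once), mock without recovery (kept at 22 °C), heat with 2 days of recovery at 22 °C after the same stress, and mock with 2 days of recovery (kept at 22 °C throughout). Each group had 2 biological replicates with 1 Affymetrix array each, and the labels name no ecotype or genotype.

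A plant kept well above its growth temperature directs transcription and translation towards chaperones, and transcripts for growth, cell wall building and light signalling are commonly reduced in favour of protein protection. A transcript disappears from a measurement when its synthesis slows and its existing copies decay, and it returns only when synthesis resumes. Some effects of heat outlast the stress itself, and the recovery groups ask which ones remain.

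The label of these genes as read at background held on the arrays that chose them, and nothing below is a test on those arrays. Of the 62 heat no-recovery values, 42 lay below log2 2.3, read here as the floor of the signal, and 22 stood at the lowest value of the array set, 2.18. The other 20 lay between 2.3 and 2.49. Both heat arrays were below 2.3 for 16 genes, 1 array was for 10, and neither was for 5. A value at the floor does not show that the transcript was absent, and for the 26 genes with 1 or both heat arrays there the log2 difference against mock is a minimum size, written "at least". In these bulk samples, fewer cells of a type and less RNA per cell cannot be told apart.

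**Figure D1:**
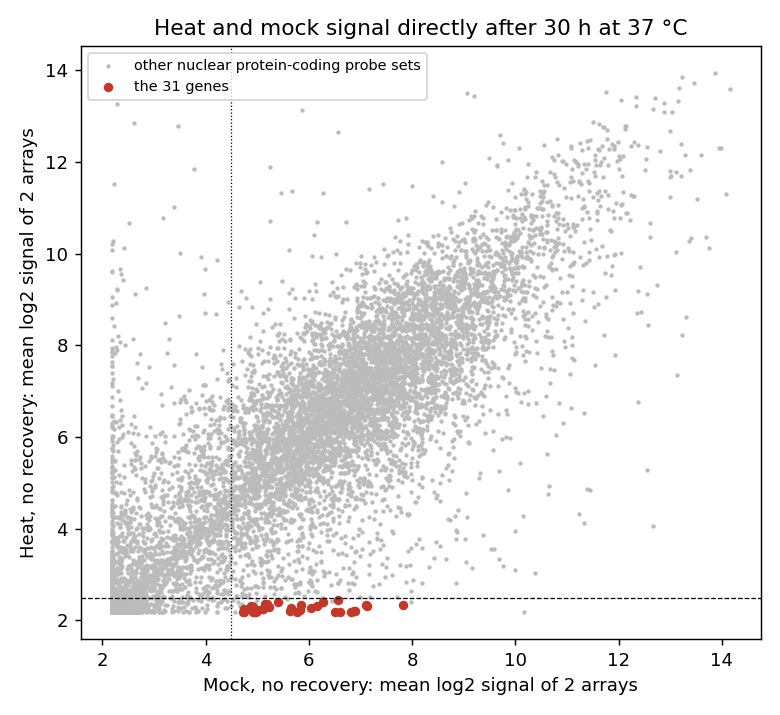
Mean log2 signal of 2 heat no-recovery arrays (vertical axis) against that of 2 mock no-recovery arrays (horizontal axis) for nuclear protein-coding probe sets, with the 31 genes in red and the thresholds of 2.5 (dashed) and 4.5 (dotted) as lines. The 31 genes lie along the floor and reach a mock mean of no more than 7.83, while 2139 other probe sets stand above that mock level.

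The genes were of modest signal in mock seedlings. Their mock no-recovery means had a median of 5.66, against 7.09 over all 6318 probe sets at or above 4.5 there, and 2139 of those probe sets stood above the highest of the 31. Their log2 differences as read, heat minus mock, ran from -5.50 to -2.48 with a median of -3.43. The thresholds cut through a continuous range. Just inside the heat threshold, AT5G05090, AT4G16880 and AT5G59080 had a higher heat value of 2.49, 2.47 and 2.47, and just outside it AT1G10990, AT1G65500 and AT5G25440 had 2.503, 2.511 and 2.516. Just inside the mock threshold, AT5G11610, AT2G31010 and AT1G26380 had a lower mock value of 4.55 each, and just outside it AT4G37240, AT5G07820 and AT5G03130 had 4.44, 4.35 and 4.33.

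The gene table gave a symbol to 4 of the 31: CSLA03, UPB1, Prx37 and FHL. CSLA03, a cellulose synthase-like A protein, belongs to the enzymes that build the mannan backbone of the hemicellulose glucomannan. It read 2.26 and 2.42 on the heat no-recovery arrays, against 7.12 and 7.11 on the mock no-recovery arrays, a log2 difference of at least -4.77. After recovery it read 6.60 and 6.62 in heat and 6.68 and 6.64 in mock seedlings. The recovery difference was -0.05 ± 0.06 (SE), small beside the earlier one.

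UPB1, a basic helix-loop-helix (bHLH) transcription factor, is known in roots for repressing peroxidase genes where cells pass from division to elongation. It read 2.41 and 2.24 in heat without recovery, against 5.81 and 5.90 in mock. Recovered seedlings read 8.14 and 8.01 in heat, against 7.87 and 7.31 in mock, so both groups of that day stood well above the earlier mock seedlings. Both recovered heat arrays lay above both mock arrays of the day, with a difference of means of 0.49 ± 0.20 (log2 difference ± SE, n = 2 arrays a group), which limma did not call (adjusted p = 0.456). It was 0.77 without mock recovery replicate 1 and 0.20 without mock recovery replicate 2.

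Prx37 is a class III peroxidase, of the secreted enzymes that act on phenolic compounds in the cell wall. It read 2.22 and 2.23 in heat without recovery, against 4.65 and 5.36 in mock, at least -2.78. Recovered seedlings read 3.56 and 3.09 in heat, against 4.81 and 4.32 in mock. The groups did not overlap at either time. The recovery difference of -1.25 ± 0.33 was not called (adjusted p = 0.236).

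FHL, a homologue of FHY1, helps to carry the light receptor phytochrome A into the nucleus in far-red light. It read 2.19 and 2.45 in heat without recovery, against 5.17 and 4.61 in mock. At recovery it read 3.34 and 4.46 in heat, against 5.51 and 5.10 in mock. Both recovered heat arrays lay below both mock arrays, but they differed from each other by more than 1 log2 unit. The difference was -1.41 ± 0.45 (adjusted p = 0.316), and ran from -1.97 without heat recovery replicate 2 to -0.85 without heat recovery replicate 1.

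Relatives of CSLA03, Prx37 and UPB1 were listed by symbol, and their responses were mixed. Directly after the stress limma called 19.8% of all tested probe sets lower and 21.2% higher (41.0% in all, adjusted p under 0.05). Of 6 other cellulose synthase-like genes with a probe set, 2 were called lower, none higher, and 2 were at the floor on all arrays (median log2 change -0.22). CSLC04, of the CSLC group that makes xyloglucan backbones, read 4.82 and 5.33 in heat, against 8.002 and 7.46 in mock (-2.66 ± 0.30, adjusted p = 0.00307). CSLD2 read 6.99 and 7.01, against 6.84 and 6.89 (0.14 ± 0.06, adjusted p = 0.158).

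Of 6 other peroxidases 2 were called lower, none higher, and 2 were at the floor throughout (median -0.06). AT5G64120, listed as a peroxidase, read 2.71 and 3.58 in heat, against 9.14 and 9.19 in mock and so stayed above the threshold of 2.5 (-6.02 ± 0.33, adjusted p = 0.000406). PRXR1 read 11.92 and 11.72, against 13.41 and 13.36 (-1.56 ± 0.11, adjusted p = 0.000832). After recovery AT5G64120 read 7.89 and 8.23 in heat, against 9.13 and 9.39 in mock, and like Prx37 it was not called (-1.20 ± 0.33, adjusted p = 0.252).

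Of 5 other genes with a bHLH symbol 3 were called lower and 1 higher (median -0.54). bHLH115 changed by -1.12 ± 0.18 (adjusted p = 0.00848) and bHLH34 by 1.05 ± 0.13 (adjusted p = 0.00419). None of these relatives was called after recovery, where 3 bHLH genes, 2 cellulose synthase-like genes and 1 peroxidase had an unadjusted p under 0.05. In the wider family lists, 20 of 73 transcription factors changed, 13 lower and 7 higher, with 39 at the floor throughout. UPB1 is not in that list, which went by the start of the symbol. Cytochromes P450 had 8 of 24 lower and 3 higher, and the dark- and starvation-induced genes AT3G15450 and AT3G15630 were both called lower but read no lower than 2.998 in heat, outside the rule. All 16 such lists, 14 of them with a measured gene, held Prx37 as the only member. Of their other 224 genes limma called 48 lower and 20 higher directly after the stress and 0 after recovery, where 22 had an unadjusted p under 0.05.

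**Figure D2:**
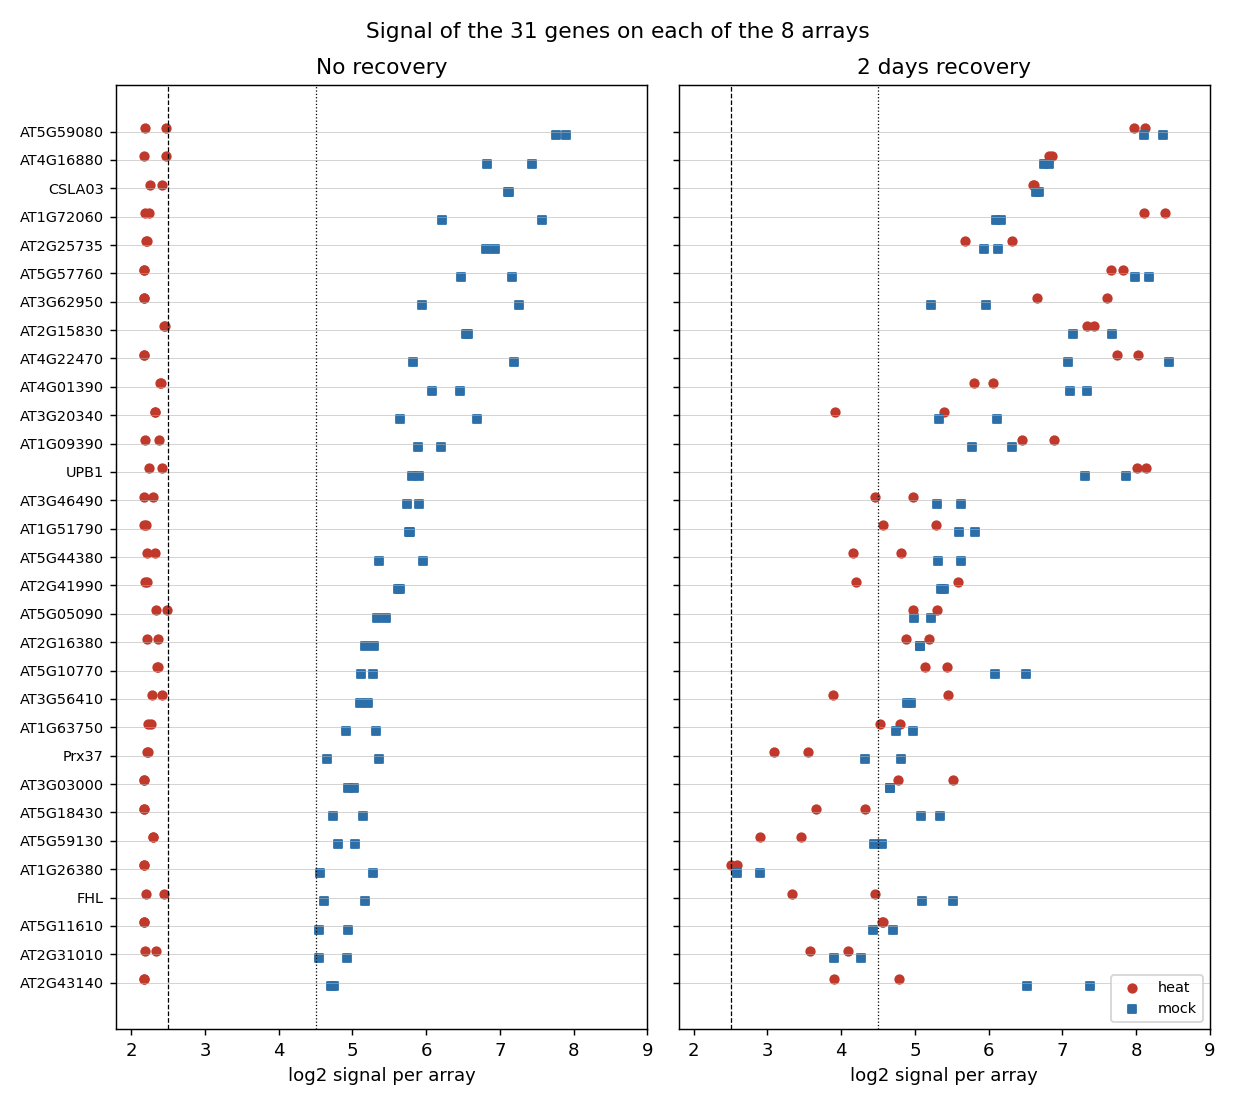
The log2 signal of each of the 31 genes on each array, heat as red circles and mock as blue squares, without recovery (left) and after 2 days of recovery (right), in the order of the mock no-recovery mean; lines mark 2.5 (dashed) and 4.5 (dotted). On the left all heat values sit between 2.18 and 2.49, and on the right only AT1G26380 stays near 2.5 in both groups.

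The other 27 genes carry only locus names in the tables used here, so no role is given for them. Those with the strongest signal in mock included several that came back to the mock level of the day. AT5G59080 had the highest mock mean of the 31 and read 2.47 and 2.19 in heat without recovery, against 7.90 and 7.76 in mock (at least -5.50). After recovery it read 8.12 and 7.97 in heat and 8.11 and 8.37 in mock, and the ranges overlapped.

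AT4G16880 read 2.47 and 2.18 in heat, against 7.44 and 6.82 in mock, and after recovery 6.86 and 6.82 in heat and 6.75 and 6.82 in mock. AT2G25735 read 2.20 and 2.21 in heat, against 6.93 and 6.81 in mock (at least -4.66), and after recovery 5.68 and 6.32 in heat and 6.12 and 5.94 in mock. AT2G15830 read 2.46 and 2.44 in heat, against 6.57 and 6.54 in mock, and after recovery 7.34 and 7.43 in heat and 7.67 and 7.15 in mock. All 3 overlapped with mock after recovery.

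AT4G22470 and AT5G57760 stood at 2.18 on both heat no-recovery arrays. AT4G22470 read 5.83 and 7.19 in mock (at least -4.33), and after recovery 7.74 and 8.03 in heat and 7.08 and 8.45 in mock. AT5G57760 read 7.16 and 6.48 in mock (at least -4.64), and after recovery 7.66 and 7.82 in heat, against 8.17 and 7.99 in mock. For both genes the means of recovered heat seedlings and of mock seedlings of that day stood above the earlier mock mean.

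The second comparison, heat against mock after 2 days of recovery, rests on 4 arrays that played no part in the choice of the genes. No gene of the 31 was called by limma over all probe sets, where 0.237% were called. An unadjusted p under 0.05 was reached by 11 of the 31 (35.5%), 10 lower and 1 higher, against 12.7% of all probe sets (6.23% lower and 6.42% higher). All probe sets include many at the floor. Of the other 6287 nuclear protein-coding probe sets at or above 4.5 in mock 19.2% reached it. Of the 273 heat-lowered genes of the same mock range compared below 22.0% did. With the heat no-recovery group left out of the fit, 9 of the 31 reached an unadjusted p under 0.05. The share over all probe sets in that fit is not given here. A filter kept the 13849 probe sets that reached log2 4 on 2 or more arrays, and all 31 passed it because their mock arrays were chosen high. In that filtered set 7 of the 31 were called, 6 lower and 1 higher, against 2.04% of the set lower and 2.17% higher. Of the other 6287 there, 219 were called, 100 lower and 119 higher. Of the 273 there, 27 were called, 16 lower and 11 higher. These 7 calls used a spread shared with the heat no-recovery arrays, where the members sat at the floor with a median SD of 0.02, against 0.30 on the heat recovery and 0.19 on the mock recovery arrays. Without the heat no-recovery group 0 of the 31 were called in that filtered set, where 0.570% were called. Over all settings the adjusted p of the 7 genes ran from 0.0112 to 0.65.

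**Figure D3:**
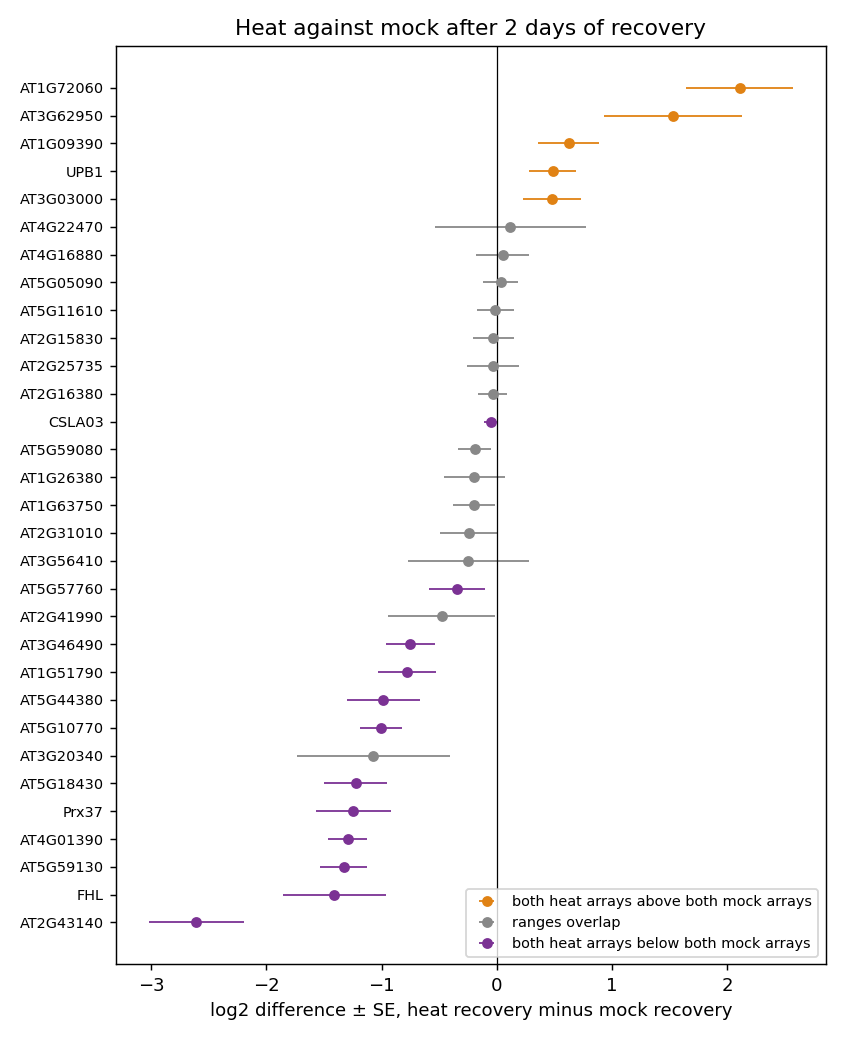
The log2 difference, heat recovery minus mock recovery, of each of the 31 genes with its standard error from limma (n = 2 arrays a group), coloured by whether the 2 heat arrays lay above, among or below the 2 mock arrays. The differences run from -2.61 for AT2G43140 to 2.11 for AT1G72060, and 21 of 31 are smaller than 1.

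In level, 0 of the 31 genes had both recovered heat arrays below 2.5, although AT1G26380 was close to it, and 19 had both at or above 4.5, against 26 with both mock recovery arrays there. The recovery difference was smaller than 1 log2 unit for 21 genes. It was -1 or lower for 8, against 1.15% of all tested probe sets, and 1 or higher for 2, against 1.14%. The median difference was -0.20, against 0.00 over all probe sets. It was -0.05 without heat recovery replicate 1 and -0.35 without heat recovery replicate 2, with 6 and 11 genes at -1 or lower, so the size of this shift depended on which recovered heat array was used.

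Both recovered heat arrays lay below both mock arrays for 12 genes, against 17.4% of all tested probe sets and 23.4% of the other 6287 nuclear protein-coding probe sets at or above 4.5 in mock. They lay above for 5 genes, against 16.9% and 27.4%, and overlapped for 14. As shares of the members these were 38.7% below and 16.1% above. The differences of the 12 genes below ran from -2.61 for AT2G43140 to -0.05 for CSLA03, with AT5G57760 at -0.34. The count thus includes small differences. Among the heat-lowered genes of the same mock range compared below, 32.6% lay below and 22.7% above. That share below was closer to the share of the members than either background was, and the difference was not tested.

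AT2G43140 had the most negative recovery difference of the 31. It read 2.18 on both heat no-recovery arrays, against 4.76 and 4.71 in mock, and after recovery 3.90 and 4.79 in heat, against 7.38 and 6.53 in mock. Recovered heat seedlings thus stood close to the mock level of 2 days earlier, while mock seedlings of the day stood above it. The difference was -2.61 ± 0.41 (adjusted p = 0.115, and adjusted p = 0.0112 over the filtered set).

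AT5G59130 remained low after recovery, while its mock level was similar on the 2 days. It read 2.29 on both heat no-recovery arrays, against 5.03 and 4.81 in mock, and after recovery 3.46 and 2.90 in heat, against 4.56 and 4.45 in mock. The difference was -1.33 ± 0.20 (adjusted p = 0.111, and adjusted p = 0.0154 over the filtered set). As most of this lies below log2 4, it shrank to -0.51 when values under 4 were set to 4, and that of Prx37 to -0.57.

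AT4G01390 and AT5G18430 were also lower after recovery on both arrays. AT4G01390 read 2.40 and 2.39 in heat without recovery, against 6.46 and 6.08 in mock, and after recovery 6.06 and 5.80 in heat, against 7.11 and 7.33 in mock (-1.29 ± 0.17, adjusted p = 0.0917, and adjusted p = 0.0118 over the filtered set). AT5G18430 read 2.18 on both heat arrays, against 5.14 and 4.74 in mock, and after recovery 3.66 and 4.32 in heat, against 5.34 and 5.08 in mock (-1.22 ± 0.27, adjusted p = 0.195, and adjusted p = 0.0358 over the filtered set). The recovered level of AT4G01390 was near that of mock seedlings 2 days earlier, and that of AT5G18430 was below it.

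AT5G10770 completes the 6 genes called lower over the filtered set, with Prx37 (adjusted p = 0.0494 there). It read 2.35 and 2.36 in heat without recovery, against 5.28 and 5.11 in mock, and after recovery 5.14 and 5.44 in heat, against 6.51 and 6.08 in mock (-1.01 ± 0.18, adjusted p = 0.144, and adjusted p = 0.0271 over the filtered set). Its recovered heat mean was 0.09 above the earlier mock mean, so the difference came with a higher mock level on the later day.

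AT3G46490, AT1G51790 and AT5G44380 were lower by less than 1 log2 unit with no overlap. AT3G46490 read 4.97 and 4.46 in recovered heat seedlings, against 5.30 and 5.63 in mock (-0.75 ± 0.21, adjusted p = 0.265). AT1G51790 read 4.57 and 5.29, against 5.60 and 5.81 (-0.78 ± 0.25, adjusted p = 0.317). AT5G44380 read 4.81 and 4.16, against 5.31 and 5.62 (-0.98 ± 0.32, adjusted p = 0.318). All 3 had read between 2.18 and 2.33 in heat and between 5.36 and 5.96 in mock without recovery.

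Of the genes above mock after recovery, AT1G72060 had the largest difference. It read 2.24 and 2.19 in heat without recovery, against 6.22 and 7.58 in mock (at least -4.69). In recovered seedlings it read 8.11 and 8.39 in heat, against 6.17 and 6.10 in mock, a difference of 2.11 ± 0.47 (adjusted p = 0.192, and adjusted p = 0.0274 over the filtered set). Its recovered level also exceeded both earlier mock arrays, which differed from each other by over 1 log2 unit.

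AT3G62950 stood at 2.18 on both heat no-recovery arrays, against 5.95 and 7.26 in mock (at least -4.43). After recovery it read 6.66 and 7.60 in heat, against 5.22 and 5.97 in mock, a difference of 1.53 ± 0.60 that was not called (adjusted p = 0.418). In both mock groups and in recovered heat seedlings its 2 arrays lay wide apart.

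AT1G09390 and AT3G03000 were above mock by less. AT1G09390 read 6.88 and 6.46 after recovery in heat, against 5.77 and 6.32 in mock (0.62 ± 0.26, adjusted p = 0.453), having read 2.19 and 2.37 in heat and 5.89 and 6.20 in mock without recovery. AT3G03000 read 4.77 and 5.52, against 4.66 and 4.67 (0.48 ± 0.25, adjusted p = 0.587), having read 2.18 on both arrays in heat and 4.94 and 5.02 in mock. The difference of AT1G09390 was 0.35 without mock recovery replicate 1 and 0.41 without heat recovery replicate 1. That of AT3G03000 was 0.86 without heat recovery replicate 1 and 0.11 without heat recovery replicate 2.

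For several genes the 2 recovered heat arrays disagreed. AT3G20340 read 3.91 and 5.39 in recovered heat seedlings, against 6.12 and 5.33 in mock. AT2G41990 read 4.21 and 5.59, against 5.35 and 5.40, and AT3G56410 read 3.90 and 5.45, against 4.90 and 4.94. These 3 genes and FHL are the 4 whose recovered heat arrays differed by over 1 log2 unit, with replicate 1 the lower in all 4. Over the 31 genes replicate 1 was lower for 19, a share of 61.3%, against 54.6% of the other nuclear protein-coding probe sets at or above 4.5 in mock. Without heat recovery replicate 2, the differences of AT3G56410, AT1G51790 and AT2G41990 were -1.02, -1.14 and -1.17. Without heat recovery replicate 1, those of AT5G59130 and AT3G03000 were -1.605 and 0.855.

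For the rest the recovered heat arrays overlapped with the mock arrays of the day. AT5G05090 read 4.97 and 5.30 in heat and 4.99 and 5.22 in mock after recovery, AT2G16380 read 4.87 and 5.19 in heat and 5.07 on both mock arrays, and AT5G11610 read 4.56 and 4.55 in heat and 4.43 and 4.70 in mock. AT1G63750 read 4.80 and 4.53 in heat and 4.98 and 4.75 in mock, and AT2G31010 read 3.58 and 4.10 in heat and 4.26 and 3.90 in mock. These 5 genes had mock no-recovery means from 4.74 to 5.39 and heat no-recovery values from 2.18 to 2.49.

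Mock seedlings themselves moved between the 2 days for some of the genes, which is given without a test because the mock no-recovery arrays chose them. The later mock mean was within 1 log2 unit of the earlier for 24 of 31, higher by at least 1 for 5 and lower by at least 1 for 2. AT1G26380 is the clearest loss: it read 2.59 and 2.90 in mock seedlings of the later day, against 4.55 and 5.28 in the earlier ones, and 2.59 and 2.51 in recovered heat seedlings. Its low reading after recovery was thus shared by seedlings that were never heated. The 5 genes with a higher later mock mean were AT2G43140 (by 2.22), UPB1 (by 1.74), AT5G57760 (by 1.26), AT4G22470 (by 1.26) and AT5G10770 (by 1.10). Set against the earlier mock seedlings, recovered heat seedlings had a lower mean for 21 of the 31 genes and a higher mean for 10. Mock seedlings of the later day, never heated, also had a lower mean than the earlier ones for 20 of the 31. Both counts are set against the mock no-recovery values, which the rule required to be high. They therefore cannot separate an effect of heat from the choice of the genes, and no conclusion is drawn from them.

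The mock no-recovery mean is one of the values that chose the genes, so its relation to the recovery difference is given as a description and supports nothing. Across the 31 genes the mock no-recovery mean and the recovery difference had a Pearson r of 0.44 and a Spearman rho of 0.46, a description over 31 genes that share the same 8 arrays. Over the other 6287 nuclear protein-coding probe sets at or above 4.5 in mock these were 0.02 and 0.01. The 12 genes of highest mock mean had a median recovery difference of -0.03, with 3 below and 3 above mock on both arrays. The other 19 had a median of -0.48, with 9 below and 2 above.

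The plot of cumulative shares sets the 31 beside other genes lowered by the heat treatment. The compared set, chosen after the values were seen, was 273 nuclear protein-coding probe sets with a mock mean in the same range that were called lower in heat by at least 2 log2 units and did not read below 2.5 on both arrays; 14 of them read below 2.3 on 1 of the 2 heat arrays. Of these 273, 19 (6.96%) had a recovery difference of -1 or lower and 10 (3.66%) of 1 or higher, against 8 of 31 (25.8%) and 2 of 31 (6.45%) for the genes described here. The median difference was -0.20 for the 31 genes and -0.09 for the 273. The middle part of the values, between the quartiles, ran from -0.99 to 0.01 for the 31 and from -0.40 to 0.20 for the 273. The difference between the sets was not tested, and the 31 had a lower median signal in mock (5.66, against 6.63).

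**Figure D4:**
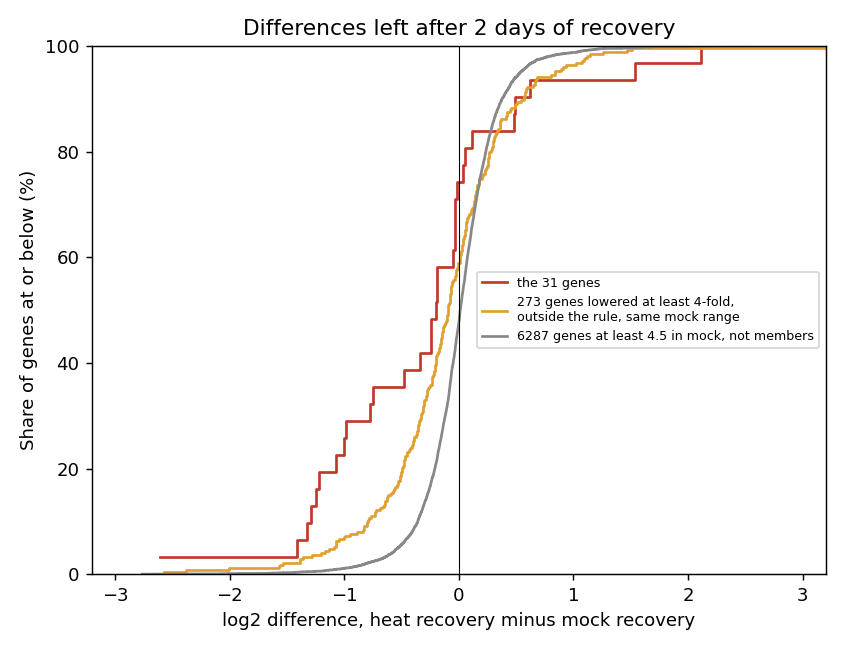
Cumulative share of genes (percent) by log2 difference, heat recovery minus mock recovery, for the 31 genes (red), 273 genes of the same mock range that were called lower by at least 4-fold and did not read below 2.5 on both heat arrays (yellow), and 6287 other genes at or above 4.5 in mock (grey). The red line rises early on the left, with 25.8% of genes at -1 or lower, against 6.96% of the yellow and 1.11% of the grey set.

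A further 24 probe sets lay within both thresholds but have no gene in the table used here. Their recovery difference had a median of 0.34, with 4 at -1 or lower and 4 at 1 or higher. In the fit over all probe sets 0 were called (8 had an unadjusted p under 0.05, 2 lower and 6 higher). Over the filtered set 6 of the 24 were called, 2 lower and 4 higher, with the same shared spread as for the 31. Filtered calls were thus not particular to the 31 genes. The median of the 24 lay on the other side of 0 from that of the 31 genes. A wide spread was common to both.

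The 31 genes were scattered over the genome, with 6 on chromosome 1, 7 on chromosome 2, 5 on chromosome 3, 4 on chromosome 4 and 9 on chromosome 5, and no member lay next to another among protein-coding genes. Of their 62 adjacent protein-coding genes 29 had a probe set. Directly after the stress 5 of these were called lower, 5 higher and 19 not called, and 11 were at the floor on all arrays. Over all 12193 other nuclear genes with a probe set 18.7% were called lower and 21.7% higher.

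Some neighbours moved with their member and others did not. AT5G44390, beside AT5G44380, read 2.35 and 2.37 in heat, against 3.81 and 3.48 in mock (-1.28 ± 0.17, adjusted p = 0.00489), and AT5G11600, beside AT5G11610, was lower (-1.90 ± 0.20, adjusted p = 0.00231). AT5G18420, beside AT5G18430, was higher by 1.21 ± 0.06 (adjusted p = 0.000373). AT1G26390, beside AT1G26380, read 2.19 and 2.35 in heat, against 3.02 and 7.11 in mock, so that its mock arrays disagreed and it was not called (adjusted p = 0.208). AT3G62960, beside AT3G62950, went against its neighbour after recovery: it read 2.18 and 2.38 in heat, against 3.64 and 3.79 in mock, and was called lower (-1.44, adjusted p = 0.0324), with all its values below log2 4. AT5G59070, beside AT5G59080, was called higher (0.84, adjusted p = 0.0342), at 3.13 and 2.97 in recovered heat seedlings, against 2.21 on both mock arrays. All its values also lay below log2 4, and outside the recovered heat group all lay below 2.3, at the floor.

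The arrays were alike in overall signal, with medians from 5.05 to 5.12 and replicate correlations across probe sets from 0.995 to 0.996. Of 6 shoot markers the 3 with a probe set read 10.002 or more on every array, and of 5 root markers PYK10 read 8.78 or more while EXPA7 and EXPA18 stayed at or next to the floor. PYK10 read 9.01 and 8.78 in heat without recovery, against 11.93 and 11.29 in mock, and the shoot antenna gene LHCB4.2 read 10.23 and 10.002, against 13.84 and 13.68. The log2 change of LHCB4.2 was -3.64, and those of the other measured shoot markers, PSBY and PSAE-1, were smaller at -1.76 and -1.68. PYK10 and these shoot markers moved down with the 31 genes directly after the stress, and their part in those readings was not tested. After recovery PYK10 differed by 0.16 and LHCB4.2 by -0.13.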

How the data were processed

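RNA of 8 seedling samples was measured on Affymetrix arrays. The authors deposited 1 score per probe set and array, made with GCRMA per the submitters' processing notes (background correction, quantile normalization and a log2 summary); no version of it is stated there. These deposited values had lost their decimal point (0 of 182480 held one), which was put back behind the leading digit, or behind the leading 2 for values starting with 1, so the log2 scale is a reading of the digits. A shift common to all transcripts cannot be seen, and 2 arrays a group limit the precision. Gene names came from the platform table and RefSeq (TAIR10.1, names and neighbours only). After 64 control probe sets were left out, 22746 were fitted with limma 3.58.1 in R 4.3.3: 1 mean a group, all 8 arrays, 4 residual degrees of freedom, two-sided moderated tests, Benjamini-Hochberg over all probe sets, threshold 0.05. The fit was tested on simulated data with changes set only in probe sets of higher mean signal. Many of the genes described here lie below that signal, so the test does not cover them. Python 3.11.15, pandas 2.3.3 and matplotlib 3.10.9 did the rest.

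The members and lists were chosen with earlier results of these data known. Named were the 12 members of highest mock signal, those called after recovery, the 6 largest non-overlapping differences each way, members with a symbol and those nearest the thresholds; the remaining members were added so that all 31 are given. Family lists went by symbol, and those of cellulose synthase-like, peroxidase and bHLH genes were added after values were seen. Alternatives varied the arrays, filter, floor, centring, normalization, variance prior, block and thresholds. Promoter and protein features were not analysed here.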

Additional observations from a re-analysis of the deposited data

Results flagged for a closer look

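For 5 of the 31 genes the heat difference had opposite directions at the 2 times on every array: below mock directly after the stress, as their choice required, and above mock after recovery. The recovery differences on the log2 scale were 2.11 for AT1G72060, 1.53 for AT3G62950, 0.62 for AT1G09390, 0.49 for UPB1 and 0.48 for AT3G03000. The difference between the times was not tested, because the no-recovery arrays chose the genes, and both heat arrays above both mock arrays is a pattern that 16.9% of all tested probe sets showed.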

How the results depend on the processing

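No member was called after recovery in 12 of 15 other fits, nor with any other membership threshold. The fit over the filtered set (log2 4 reached on 2 or more arrays) called 7 members, against 2.04% of that set lower and 2.17% higher. The other exceptions were the fits without heat recovery replicate 1 or without heat recovery replicate 2. These leave 1 array in that group, so their calls are not counted here. Except where stated, the share of all probe sets called in the other fits is not given here. Leaving out the heat no-recovery group, an alternative chosen after seeing the data, gave 0 calls over all probe sets and 0 over the filtered set. The median recovery difference stayed below 0 in all settings run, from -0.35 to -0.05 with single arrays left out. The number of genes meeting the rule was 16 with a heat threshold of 2.3, 88 with 3, 8 with a mock threshold of 6, and 61 with probe sets of any annotation counted. No direction turned for the 13 genes followed under each setting, where 9 results passed the threshold that the main result missed. The replicate numbers showed no pairing (correlations of same-numbered deviations between groups from -0.13 to 0.15). With the replicate block 0 members and 18 probe sets in all were called. The feature alternatives were not run. All heat no-recovery values of the members lie below 2.5, at or next to the floor of the signal, which limits how large a difference can be read.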
